A study of Mus musculus with 6 samples.

Results

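Calcium handling genes of the mouse aorta were compared between Prdm16 iSM KO mice and control mice. The set holds 72 of the 55487 genes in the count table. It takes in every protein-coding gene whose symbol belongs to the voltage-gated calcium channel subunits (Cacn genes), the ryanodine and inositol trisphosphate receptors (Ryr1 to Ryr3, Itpr1 to Itpr3), the calsequestrins (Casq1, Casq2), the SERCA pumps (Atp2a genes) and their regulators sarcolipin (Sln) and phospholamban (Pln), the plasma membrane calcium pumps (Atp2b genes), the sodium-calcium exchangers (Slc8a1 to Slc8a3), the store-operated entry genes (Stim1, Stim2, Orai1 to Orai3) or the TRP channels (Trpc, Trpm and Trpv genes). The members were taken by symbol, and the rule itself uses no measured value. The set was, however, chosen with earlier results of these data known, so no test of the set was run.

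Contraction of vascular smooth muscle is set by the concentration of free calcium in the cytosol. Calcium enters through voltage-gated L-type channels, store-operated channels and TRP channels, and it is released from the sarcoplasmic reticulum through inositol trisphosphate and ryanodine receptors. SERCA pumps return it to the reticulum, whereas plasma membrane pumps and sodium-calcium exchangers carry it out of the cell. The exchangers move sodium in for calcium out and can also run in the opposite direction.

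Bulk RNA-seq of aortas was available from 3 control and 3 Prdm16 iSM KO mice, all male. Prdm16 encodes a transcriptional regulator with a PR domain and zinc fingers. The KO mice carried a floxed exon 9 of Prdm16 on both alleles and the controls the wild-type gene, and all mice, controls included, carried the Myh11-CreERT2 transgene, which drives an inducible Cre in smooth muscle cells and sits on the Y chromosome. All mice received tamoxifen from 8 weeks of age, at 1 mg per mouse per day for 10 days. The drug was then washed out over 2 weeks, the mice were kept for 60 more days, and the adventitia was removed from the aortas. In these bulk samples, fewer cells of a type and less RNA per cell cannot be told apart.

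Total counts ranged from 24911609 in control 3 to 40460467 in iSM KO 1. Values per library are given as CPM (counts scaled to a common library total) after scaling by edgeR's TMM method, and a gene was tested when its count was over 10 in all 3 libraries of at least 1 group, which 16565 genes met. Prdm16 (chromosome 4, 154316125 to 154636873, GRCm38) fell from 195 ± 24.5 to 95.4 ± 16.5 CPM (mean ± SD, n = 3 each), with a log2 fold change of -1.03 ± 0.14 (SE) and an adjusted p (FDR) of 0.00265 in edgeR's quasi-likelihood test. The smooth muscle marker Myh11 was abundant in both groups, at 7788 ± 438 and 9011 ± 379.8 CPM. Summed CPM of 7 endothelial markers ranged from 548 to 1066 in controls and from 307 to 817 in iSM KO, that of 6 fibroblast markers from 153 to 332 and from 125 to 185, and that of 6 macrophage markers from 25.7 to 29.9 and from 11.2 to 33.0. Of the fat markers, Adipoq, Plin1, Cidec, Cfd and Cidea fell (FDR 0.0118 to 0.0438, edgeR's quasi-likelihood test). Their log2 fold changes were -4.46 (Cfd) to -1.87 (Cidea), and Cfd went from 34.1 ± 37.4 to 1.55 ± 0.952 CPM. Adipoq passed the count filter through the controls alone, the group in which it is high. The summed adipocyte markers were at 482 to 587 and 458 to 548 CPM. That sum is mostly Plin4 (460 ± 17.7 and 487 ± 50.8 CPM), so it carries little of the fall in Adipoq, Plin1, Cidec and Cfd. Of 9 smooth muscle markers Myocd and Des rose, of 6 fibroblast markers Clec3b fell (log2 fold change -1.56), and no macrophage, neuron or Schwann cell marker passed the FDR, while DESeq2 called Lyz2 (1 macrophage marker). The part of these other cell types in the results was not tested.

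Of the 72 genes, 44 had enough counts to be tested. Among them, 11 were higher and 2 lower in iSM KO at an FDR under 0.05, where 7.56% of all tested genes passed (4.26% higher and 3.30% lower). The higher genes were Slc8a1, Slc8a2, Slc8a3, Cacna1c, Cacnb3, Cacng4, Ryr2, Sln, Stim2, Trpc4 and Trpv2, and the lower genes were Cacna1d and Trpm3. A fold change over 2 was met by 4 of the higher genes, Sln, Trpc4, Cacng4 and Slc8a3 (background 1.40%), and by 0 of the lower genes with edgeR, DESeq2 or limma-voom (background 1.38%). The median log2 fold change was 0.02 over the 44 genes and -0.01 over all genes tested. The 3 libraries of 1 group lay wholly above those of the other for 14 genes with iSM KO higher (15.0% of all tested genes) and for 3 genes with iSM KO lower (13.0%). Sln and Trpc4 passed the count filter through the iSM KO libraries alone and Trpc6 through the controls alone, whereas the other 41 passed it in both groups.

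**Figure D1:**
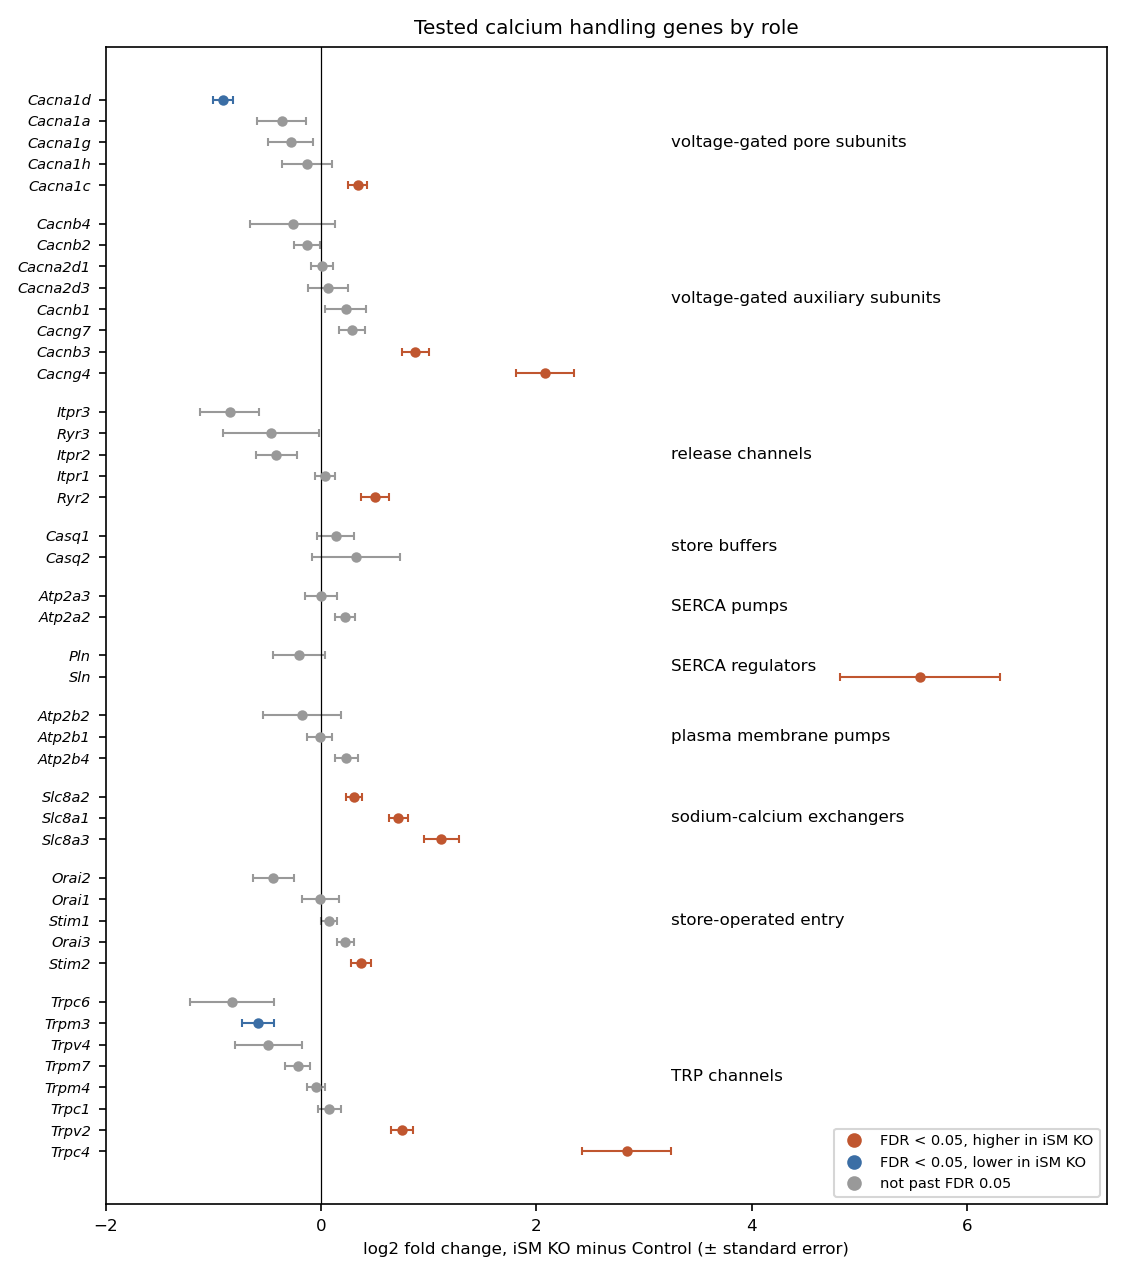
Log2 fold change (iSM KO minus Control) of tested calcium handling genes, with the standard error as a bar, grouped by role. Points past an FDR of 0.05 are coloured: 11 are higher in iSM KO, among them all 3 sodium-calcium exchangers, and 2 are lower, Cacna1d (-0.91) and Trpm3 (-0.58).

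The sodium-calcium exchangers were the role group in which every member passed the test. Slc8a1 encodes NCX1, the widely expressed exchanger of heart and vessels, Slc8a2 encodes NCX2, known mainly from brain, and Slc8a3 encodes NCX3, known from brain and skeletal muscle. Slc8a1 (ENSMUSG00000054640, chromosome 17, 81373105 to 81738377) was at 132, 140 and 138 CPM in controls 1 to 3 and at 251, 216 and 208 CPM in iSM KO 1 to 3. Every iSM KO library lay above every control, and the log2 fold change was 0.72 ± 0.09 (SE; FDR 0.00195, edgeR's quasi-likelihood test), or 1.65 times the control mean. Slc8a3 (ENSMUSG00000079055, chromosome 12, 81197915 to 81333180) was at 11.9, 9.86 and 13.8 CPM in controls and at 20.8, 26.4 and 29.8 CPM in iSM KO. It rose 2.16 times, with a log2 fold change of 1.12 ± 0.16 (FDR 0.00406), and the groups did not overlap.

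Slc8a2 (ENSMUSG00000030376, chromosome 7, 16129826 to 16161063) moved least of the 3 exchangers. It was at 47.8, 52.3 and 49.2 CPM in controls and at 60.5, 61.7 and 62.6 CPM in iSM KO, with a log2 fold change of 0.31 ± 0.07 (FDR 0.0314). The narrow spread within each group kept the groups apart. Leaving out 1 library at a time, Slc8a2 passed the FDR only without control 2 (FDR 0.0244) and otherwise had FDRs of 0.0729 to 0.153. Per kilobase of exon, the summed level of the 3 exchangers was 18.9 ± 0.522 CPM per kb in controls and 28.5 ± 0.303 CPM per kb in iSM KO. The 3 libraries of each group were thus much closer to each other than to the other group, and the exact two-sided permutation p was 0.1, the smallest that 3 against 3 libraries allow.

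The make-up of the exchanger transcripts was compared as well. Slc8a3 was the least abundant of the 3 per kb, at 2.22 ± 0.369 CPM per kb in controls against 7.27 ± 0.218 for Slc8a1 and 9.45 ± 0.436 for Slc8a2. Its share of the exchanger total went from 11.7% ± 1.95 to 16.9% ± 3.07 (exact permutation p = 0.1). The groups came close to each other, with 13.4% in control 3 and 13.6% in iSM KO 1. In iSM KO, Slc8a1 at 11.96 ± 1.20 CPM per kb and Slc8a2 at 11.7 ± 0.203 CPM per kb no longer differed beyond their spread. In CPM, without division by exon length, Slc8a1 lay above Slc8a2 in both groups. Slc8a1 was 0.216 ± 0.0331 of the per kb level of Atp2b4, the leading plasma membrane pump, in controls and 0.298 ± 0.0353 in iSM KO (exact permutation p = 0.1). Of the 6 deposited Slc8a1 values, 3 were not whole numbers, and its exons overlap an antisense transcript over 296 bp.

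The promoter sequences of the exchangers are printed because they are the one role group whose tested members all moved together. Each is the 250 bases before the RefSeq transcription start on GRCm38.p6, written 5′ to 3′ on the gene's strand. The windows are chr17:81738388-81738637 on the minus strand for Slc8a1, chr7:16129576-16129825 on the plus strand for Slc8a2 and chr12:81333181-81333430 on the minus strand for Slc8a3.
Slc8a1: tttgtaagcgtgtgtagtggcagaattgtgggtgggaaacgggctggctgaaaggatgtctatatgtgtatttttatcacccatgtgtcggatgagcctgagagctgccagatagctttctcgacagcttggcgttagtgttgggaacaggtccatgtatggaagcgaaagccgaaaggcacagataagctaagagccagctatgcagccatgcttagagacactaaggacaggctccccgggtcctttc
Slc8a2: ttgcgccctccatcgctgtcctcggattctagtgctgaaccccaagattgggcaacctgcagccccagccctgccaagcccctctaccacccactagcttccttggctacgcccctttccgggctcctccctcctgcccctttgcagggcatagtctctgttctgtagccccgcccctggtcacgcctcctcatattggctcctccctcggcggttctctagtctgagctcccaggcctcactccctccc
Slc8a3: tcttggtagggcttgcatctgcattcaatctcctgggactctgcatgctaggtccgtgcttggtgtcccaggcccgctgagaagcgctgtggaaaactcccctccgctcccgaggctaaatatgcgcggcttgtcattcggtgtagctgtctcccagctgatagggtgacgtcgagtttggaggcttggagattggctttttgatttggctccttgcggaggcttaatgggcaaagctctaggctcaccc
The 3 windows differ in base composition, with a GC content of 50.4% for Slc8a1, 63.2% for Slc8a2 and 56.0% for Slc8a3, against a median of 52.4% over 32851 RefSeq windows. The motifs searched, on both strands, were TATAAA (the core of a TATA box), the CArG box (bound by serum response factor), CACGTG (an E-box) and CAGACA, which holds the core of a SMAD binding element. A CArG box can itself hold TATAAA. None of these letters was found in the 3 exchanger windows. Of the 13 genes past the FDR, 11 had a window, of which 2 held TATAAA (12.4% of all windows), 0 a CArG box (1.47%), 0 CACGTG (6.02%) and 1 CAGACA (17.1%).

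**Figure D2:**
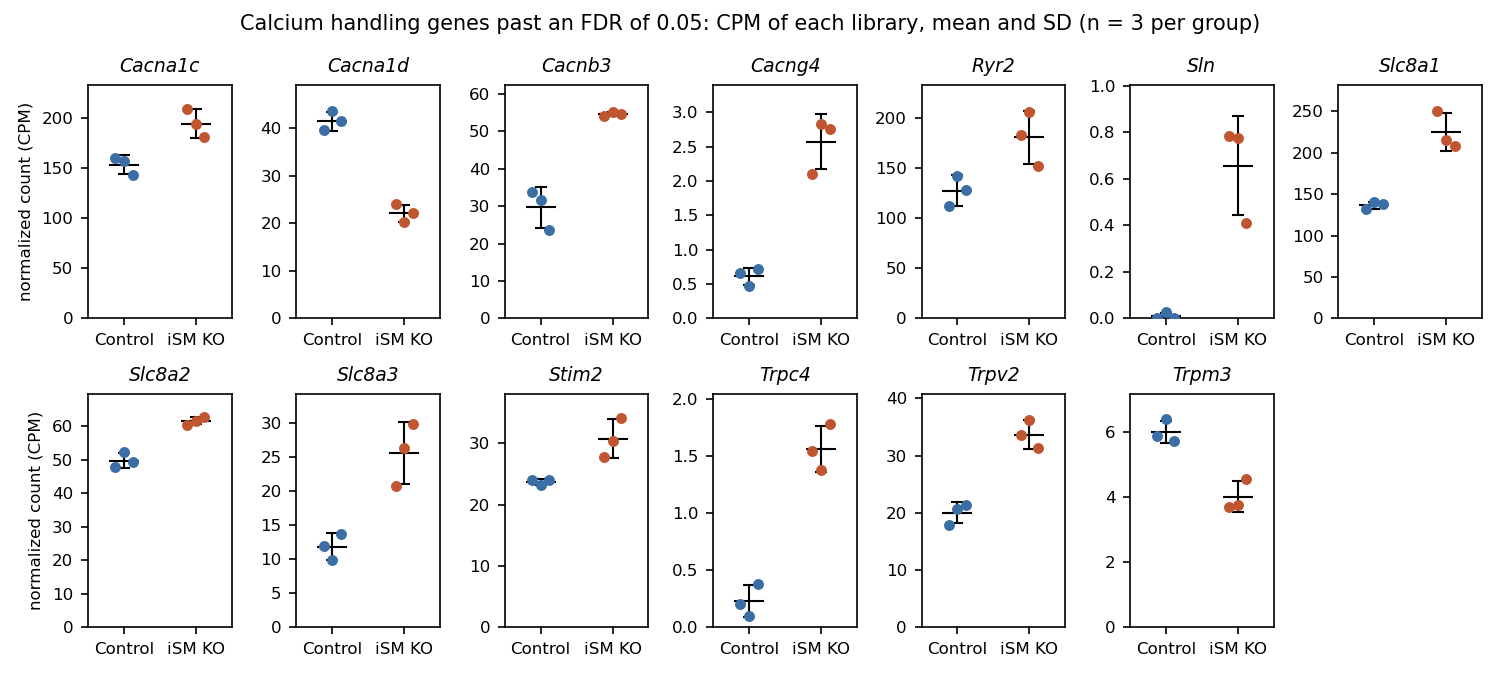
CPM of each library for the 13 calcium handling genes past an FDR of 0.05, on axes that start at 0. Points are the 3 libraries of each group, the long line is the mean and the bars are the SD; the groups do not overlap in any panel, and Cacna1d and Trpm3 are the panels in which iSM KO lies lower.

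The L-type pore subunits Cacna1c and Cacna1d moved in opposite directions. Cacna1c encodes Cav1.2, the main voltage-gated calcium channel of arterial muscle, and Cacna1d encodes Cav1.3, a relative that opens at more negative voltages and is known from sinoatrial node, neurons and endocrine cells. Cacna1d (ENSMUSG00000015968, chromosome 14, 30039939 to 30491455) was at 39.5, 43.5 and 41.3 CPM in controls 1 to 3 and at 23.9, 20.2 and 22.0 CPM in iSM KO 1 to 3. All 3 iSM KO libraries lay far below the controls. The log2 fold change was -0.91 ± 0.09 (SE; FDR 0.000596, edgeR's quasi-likelihood test), which left the iSM KO mean at 0.533 times that of controls.

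Cacna1c (ENSMUSG00000051331, chromosome 6, 118587240 to 119196418) was at 160, 157 and 143 CPM in controls and at 209, 194 and 181 CPM in iSM KO. The groups did not overlap, and the log2 fold change was 0.34 ± 0.09 (FDR 0.0443). It passed the FDR in none of the 6 fits that left out 1 library, where FDRs ran from 0.0546 to 0.190 and log2 fold changes from 0.28 to 0.39. Per kb, Cacna1c exceeded Cacna1d 2.42, 2.15 and 2.06 times in controls and 5.20, 5.70 and 4.89 times in iSM KO. Cacna1d made up 31.2% ± 1.78 of the pair in controls and 16.0% ± 1.03 in iSM KO, with no overlap between groups (exact permutation p = 0.1).

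Reads at Cacna1d carry a limit of annotation. Its exons overlap those of Chdh, which encodes choline dehydrogenase and lies on the opposite strand, over 589 bp, and 6 of its 6 deposited values were not whole numbers. Chdh was at 2.15 to 3.04 CPM in controls and at 0.548 to 0.917 CPM in iSM KO (log2 fold change -1.77 ± 0.28, FDR 0.00624, edgeR's quasi-likelihood test). Whether the counting used strand is not given in the sources used here. Chdh had a lower CPM than Cacna1d in every library, and the part of shared reads in either value was not tested.

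The promoter window of Cacna1c is shown because Cacna1c holds the one CAGACA match among the genes past the FDR, printed in capitals 214 bases before the start. It spans chr6:119196410-119196659 on the minus strand.
Cacna1c: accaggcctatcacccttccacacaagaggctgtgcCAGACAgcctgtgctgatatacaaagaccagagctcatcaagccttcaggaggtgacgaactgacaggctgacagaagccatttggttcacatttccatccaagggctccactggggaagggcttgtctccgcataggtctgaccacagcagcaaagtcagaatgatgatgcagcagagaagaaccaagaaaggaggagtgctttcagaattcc
Its GC content was 51.6%, close to the median of all windows. The match is a run of letters and was not tested for binding.

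The other pore subunits passed no test. Of the 10 Cacna1 genes, 5 were tested, and 3 of these were not past the FDR: Cacna1a (P/Q-type, log2 fold change -0.36), Cacna1g (T-type, -0.28) and Cacna1h (T-type, -0.13), with FDRs of 0.390 to 0.781. The remaining 5, Cacna1b, Cacna1e, Cacna1f, Cacna1i and Cacna1s, had too few counts, with Cacna1e the highest of all untested members at a mean of 0.579 CPM over the 6 libraries. Cacna1s, the pore subunit of skeletal muscle, was at a mean of 0.0174 CPM in controls and at 0.0514 CPM in iSM KO.

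Among the auxiliary subunits of voltage-gated channels, Cacnb3 and Cacng4 rose. Beta subunits bring the pore to the membrane and tune its gating, and gamma subunits of the Cacng family include regulators of AMPA receptors, of which Cacng4 is one. Cacnb3 (ENSMUSG00000003352, chromosome 15, 98630840 to 98644529) was at 33.8, 31.6 and 23.6 CPM in controls and at 54.0, 55.2 and 54.7 CPM in iSM KO. The iSM KO libraries had an SD of 0.625 CPM and lay above all controls, and the log2 fold change was 0.88 ± 0.12 (FDR 0.00352, edgeR's quasi-likelihood test). Cacnb3 was the most abundant beta subunit per kb, and its share of the 4 beta subunits went from 61.1% ± 4.74 to 74.3% ± 1.37 (exact permutation p = 0.1). Cacnb2, the next of them, was at 2.77 ± 0.334 and 2.54 ± 0.332 CPM per kb. Before division by exon length, Cacnb2 had the higher control mean, at 36.7 ± 4.42 CPM against 29.7 ± 5.39 for Cacnb3. In iSM KO it was at 33.6 ± 4.39 CPM. The ranking and the share thus depend on the exon lengths used, 13.2 kb for Cacnb2 and 4.01 kb for Cacnb3. For Cacnb2 and Cacnb4, 6 of 6 deposited values were not whole numbers. Their exons overlap opposite-strand genes over up to 618 bp (Cacnb2) and 1433 bp (Cacnb4), so the share is uncertain.

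Cacng4 (ENSMUSG00000020723, chromosome 11, 107732357 to 107794557) was a rare transcript. Its 0.657, 0.468 and 0.713 CPM in controls stood against 2.11, 2.84 and 2.77 CPM in iSM KO. It rose 4.20 times without overlap, with a log2 fold change of 2.08 ± 0.27 (FDR 0.00233). Cacna2d1, which encodes an extracellular alpha2delta subunit, was at 124 ± 17.2 CPM in controls and at 125 ± 4.09 CPM in iSM KO (log2 fold change 0.01, FDR 0.978). Cacng7, another AMPA receptor regulator, was at 34.1, 30.8 and 24.4 CPM in controls and at 34.9, 35.8 and 38.5 CPM in iSM KO, and it was not past the FDR (0.29 ± 0.12, FDR 0.197) although the groups did not overlap. Of the 16 auxiliary genes, 8 were tested, and Cacng6 had 0 counts in all libraries, where the limit of 3 counts corresponds to 0.0736 to 0.126 CPM.

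Ryr2 was the one release channel past the FDR. It encodes the ryanodine receptor of the heart, which is also known from smooth muscle, where it gives rise to calcium sparks. Ryr2 (ENSMUSG00000021313, chromosome 13, 11553102 to 12106945) was at 112, 142 and 128 CPM in controls and at 183, 206 and 152 CPM in iSM KO. The lowest iSM KO library lay just above the highest control, and the log2 fold change was 0.50 ± 0.13 (FDR 0.0459, edgeR's quasi-likelihood test). It passed the FDR in 2 of the 6 fits that left out 1 library, without control 2 (FDR 0.0356) and without iSM KO 3 (FDR 0.0239), and had FDRs of 0.115 to 0.195 in the other 4.

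Itpr1 was the main release channel of this tissue. At 24.3 ± 1.80 CPM per kb in controls and 25.0 ± 1.36 CPM per kb in iSM KO, it stood above Ryr2 (4.42 ± 0.533 and 6.26 ± 0.929), and its log2 fold change was 0.04 ± 0.09 (FDR 0.843). For Itpr1, 6 of 6 deposited values were not whole numbers, and its exons overlap opposite-strand genes over up to 181 bp. Itpr3, the next member outside the FDR threshold, was at 34.8, 40.1 and 24.4 CPM in controls and at 12.3, 16.0 and 27.0 CPM in iSM KO. The groups overlapped through control 3 and iSM KO 3, and the log2 fold change was -0.85 ± 0.28 (FDR 0.109). Without iSM KO 3 it was -1.24 (FDR 0.0141), and without a filter on low counts the FDR was 0.00364. Itpr2 was at 36.1 ± 5.70 and 27.1 ± 7.70 CPM (log2 fold change -0.41, FDR 0.241). Ryr3 was barely present (0.691 ± 0.426 and 0.511 ± 0.0785 CPM), and Ryr1, the receptor of skeletal muscle, was not tested. Ryr3 exons overlap Aven on the opposite strand over 916 bp, and 6 of 6 Ryr3 values were not whole numbers.

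The calsequestrins, which buffer calcium inside the reticulum, did not pass the test with edgeR, DESeq2 or limma-voom, and neither had an unadjusted p under 0.05. Casq1 was at 34.2 ± 8.17 CPM in controls and at 37.6 ± 4.72 CPM in iSM KO (log2 fold change 0.14, FDR 0.677). Casq2, the cardiac form, was at 0.514 ± 0.216 and 0.625 ± 0.221 CPM (0.32 ± 0.41, FDR 0.686).

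Sarcolipin had the largest fold change of the 44 genes. Sln encodes a small membrane protein that binds SERCA and lowers its calcium uptake, and it is known from skeletal muscle and the cardiac atria. Sln (ENSMUSG00000042045, chromosome 9, 53850164 to 53854560) had counts of 0, 1 and 0 in controls 1 to 3 and of 32, 27 and 15 in iSM KO 1 to 3, or 0, 0.0260 and 0 CPM against 0.785, 0.774 and 0.411 CPM. It was thus present in every iSM KO library and at or below the limit of 3 counts in every control. The fitted log2 fold change was 5.56 ± 0.74 (FDR 0.00270, edgeR's quasi-likelihood test) and depends on how near-zero counts are treated. Sln also entered the test through the iSM KO libraries alone, the group in which it is high. The pooled counts of 74 against 1 gave a ratio of 63.2 with a 95% exact interval of 10.99 to 2529, which covers counting error only.

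Sln remained a low transcript beside its partners. In iSM KO it was at 0.498 ± 0.162 CPM per kb, against 2.22 ± 0.417 for Pln and 117 ± 8.64 for Atp2a2. The ratio of Sln to Pln per kb was 0, 0.0119 and 0 in controls and 0.267, 0.327 and 0.118 in iSM KO, without overlap (exact permutation p = 0.1). This ratio rests on the same Sln counts and is not separate support for the rise of Sln. Markers of striated muscle were low in the same libraries. Of 11 cardiomyocyte markers 5 were tested and 1, Mybpc3, was higher (log2 fold change 3.72 ± 0.73, FDR 0.0169, edgeR's quasi-likelihood test), at 0.269, 0.0260 and 0 CPM in controls and at 1.82, 1.58 and 0.821 CPM in iSM KO. Mybpc3 entered the test through the iSM KO libraries alone, the group in which it is high. The summed cardiomyocyte markers were at 5.07 to 9.25 CPM in controls and at 7.86 to 9.52 CPM in iSM KO. The atrial light chain Myl4 was at 3.70, 3.85 and 2.73 CPM in controls and at 5.08, 4.33 and 4.82 CPM in iSM KO, without overlap and not past the FDR (log2 fold change 0.46 ± 0.18, FDR 0.174). Another atrial light chain, Myl7, was at 0 in all libraries but iSM KO 3 (0.0548 CPM). The remaining tested cardiomyocyte markers, Actc1, Myh6 and Tnni3, had log2 fold changes below 0 and were not past the FDR. These were -1.32 (FDR 0.127), -0.88 (FDR 0.369) and -0.24 (FDR 0.789), and for Actc1 every iSM KO library lay below every control. Actc1 passed the count filter through the controls alone, and Myh6 and Tnni3 through the iSM KO libraries alone. The part of cardiac RNA in the Sln value was not tested. The 11 skeletal muscle markers summed to 4.53 to 5.26 and 3.87 to 4.32 CPM, with 0 of 3 tested past the FDR with edgeR, DESeq2 or limma-voom and 0 at an unadjusted p under 0.05.

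Phospholamban, the other small SERCA inhibitor, did not follow Sln. Pln was at 4.58 to 8.72 CPM in controls and at 4.96 to 7.26 CPM in iSM KO. The groups overlapped throughout, with a log2 fold change of -0.20 ± 0.24 (FDR 0.668). Its exons overlap Cep85l and Gm47644 on the opposite strand and 6 of its 6 values were not whole numbers, so its level is uncertain. The ratio of Pln to Atp2a2 per kb was 0.0257 ± 0.00796 and 0.0192 ± 0.00492 (exact permutation p = 0.3).

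The pumps formed the most abundant layer of the set, and none of the 5 tested passed the FDR with edgeR, DESeq2 or limma-voom, while 1 of them, Atp2a2, had an unadjusted p under 0.05 in edgeR. Atp2a2, which encodes SERCA2, had the highest level per kb of all 72 genes, at 100.1 ± 6.87 CPM per kb in controls and 117 ± 8.64 CPM per kb in iSM KO. Its CPM of 567, 608 and 651 in controls and 749, 732 and 651 in iSM KO touched at the third library of each group, and the log2 fold change was 0.22 ± 0.10 (FDR 0.216). For Atp2a2, 6 of 6 deposited values were not whole numbers, and its exons overlap Gm43361 on the opposite strand over 83 bp. Atp2a3, which encodes SERCA3 and is known from endothelium and blood cells, was at 178 ± 28.6 and 178 ± 32.8 CPM (FDR 0.999). Atp2a1, the SERCA of fast skeletal muscle, was not tested, at a mean of 0.0313 CPM in controls and at 0.0615 CPM in iSM KO.

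Of the plasma membrane pumps, Atp2b4, which encodes PMCA4, was at 455, 444 and 354 CPM in controls and at 483, 511 and 485 CPM in iSM KO. The groups did not overlap, and the log2 fold change was 0.24 ± 0.11 (FDR 0.238). Atp2b1 was at 71.2 ± 10.6 and 70.5 ± 5.83 CPM (-0.01, FDR 0.963). Atp2b2 spread widely within iSM KO, from 9.40 to 30.1 CPM, and was not past the FDR (-0.18 ± 0.36). Per kb, Atp2b4 (34.1 ± 4.51 in controls), Atp2a3 (33.8 ± 5.41) and Itpr1 came next after Atp2a2, and Atp2b4 and Atp2a3 did not differ beyond their spread.

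**Figure D3:**
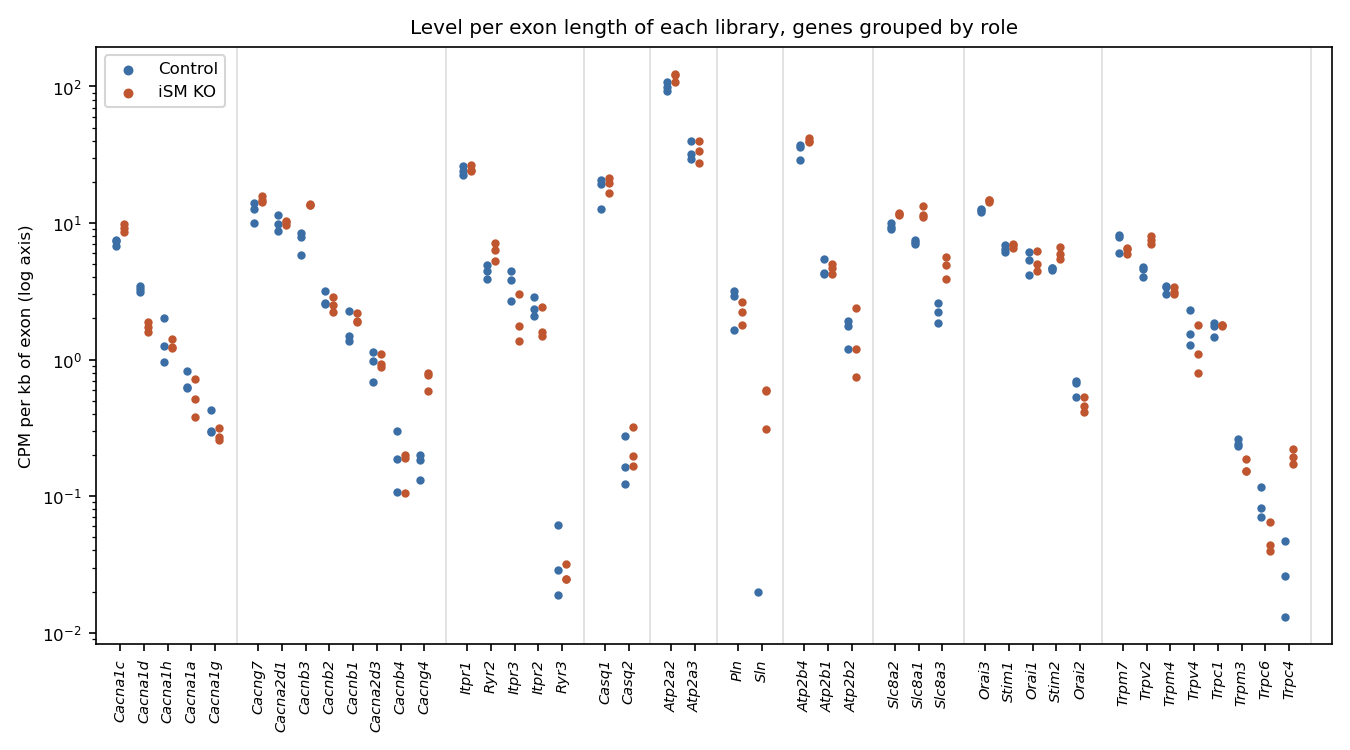
CPM per kb of exon of each library (log axis) for tested genes, grouped by role and ordered within a role by level. Atp2a2 lies highest at about 100.1 in controls, and values of 0 (Sln in controls 1 and 3) cannot be drawn on this axis.

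Store-operated entry uses STIM proteins, which sense calcium inside the reticulum, and ORAI channels of the plasma membrane. All 5 of these genes were tested, and Stim2 rose. Stim2 (ENSMUSG00000039156, chromosome 5, 53998499 to 54121057) was at 24.0, 23.2 and 24.0 CPM in controls and at 27.8, 30.3 and 34.1 CPM in iSM KO. The groups did not overlap, and the log2 fold change was 0.37 ± 0.09 (FDR 0.0465, edgeR's quasi-likelihood test). It did not pass the FDR in any of the 6 fits that left out 1 library (FDR 0.0533 to 0.161), nor with limma-voom (FDR 0.0509). Stim1, the more abundant sensor per kb, was at 67.2 ± 4.43 and 71.0 ± 2.27 CPM (0.08, FDR 0.593).

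Orai3 led the channel subunits of this group per kb, at 12.5 ± 0.313 CPM per kb in controls. It was at 25.9, 26.8 and 27.3 CPM in controls and at 31.8, 30.5 and 31.4 CPM in iSM KO, which did not overlap, and it was not past the FDR (0.23 ± 0.08, FDR 0.112). Orai1 was at 9.48 to 14.1 CPM in controls and at 10.2 to 14.3 CPM in iSM KO, with full overlap. Orai2 was at 3.85 ± 0.546 and 2.85 ± 0.365 CPM (-0.44, FDR 0.212).

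TRP channels were the largest role group, with 21 genes of which 9 were tested. Trpv2 encodes a channel gated by heat and stretch, Trpc4 a channel coupled to Gq receptors and Trpm3 a channel gated by heat and pregnenolone sulfate. Trpv2 (ENSMUSG00000018507, chromosome 11, 62574486 to 62600515) was at 17.9, 20.7 and 21.4 CPM in controls and at 33.5, 36.2 and 31.3 CPM in iSM KO. It rose 1.68 times without overlap, with a log2 fold change of 0.75 ± 0.10 (FDR 0.00258, edgeR's quasi-likelihood test). In controls Trpv2 (4.46 ± 0.406 CPM per kb) lay below Trpm7 (7.36 ± 1.18), and in iSM KO it lay above it (7.51 ± 0.550 against 6.33 ± 0.348). Trpm7, a channel joined to a kinase domain, was not past the FDR (-0.22 ± 0.12, FDR 0.316) with all libraries and passed it without control 2 (-0.34, FDR 0.0364).

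Trpc4 (ENSMUSG00000027748, chromosome 3, 54156035 to 54318471) was at 0.209, 0.104 and 0.377 CPM in controls and at 1.55, 1.38 and 1.78 CPM in iSM KO. All iSM KO libraries lay well above the controls, and the log2 fold change was 2.84 ± 0.41 (FDR 0.00417). In controls Trpc4 was below Trpc1 and Trpc6 per kb, and in iSM KO it stood at 0.195 ± 0.0253 CPM per kb, above Trpc6 at 0.0493 ± 0.0136 and under Trpc1 at 1.78 ± 0.0211. Trpc6, at 0.358, 0.416 and 0.587 CPM in controls and at 0.221, 0.201 and 0.329 CPM in iSM KO, did not overlap either and was not past the FDR (-0.83 ± 0.39, FDR 0.251). The promoter window of Trpc4 is shown because it is one of the 2 with TATAAA among the genes past the FDR, beside that of Cacna1d.
Trpc4: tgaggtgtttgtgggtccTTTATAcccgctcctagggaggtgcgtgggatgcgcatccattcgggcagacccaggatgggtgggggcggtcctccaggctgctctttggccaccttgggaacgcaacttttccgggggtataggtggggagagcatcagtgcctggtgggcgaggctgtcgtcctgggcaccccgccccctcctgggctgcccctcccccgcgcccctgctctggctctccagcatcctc
The window spans chr3:54155807-54156056 on the plus strand, with a GC content of 66.4%. Its capitals mark TTTATA, which reads TATAAA on the other strand, 232 bases before the start.

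Trpm3 (ENSMUSG00000052387, chromosome 19, 22139046 to 22995410) was at 5.88, 6.38 and 5.70 CPM in controls and at 3.70, 3.75 and 4.54 CPM in iSM KO. The groups did not overlap, and the log2 fold change was -0.58 ± 0.15 (FDR 0.0490). It was past the FDR in 0 of the 6 fits that left out 1 library (FDR from just over 0.05 to 0.198), and 3 of its 6 values were not whole numbers. Trpm4, a channel activated by calcium that carries sodium, was at 35.7 ± 2.49 and 34.6 ± 2.18 CPM (-0.05, FDR 0.794). Trpv4 and Trpc1 were not past the FDR either. Trpm8 and Trpv5 had 0 counts in all libraries.

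The 13 genes fell into 8 that passed the FDR in all 6 fits without 1 library and in all 7 other fits, and 5 that did not. The 8 were Cacna1d, Slc8a1, Slc8a3, Cacnb3, Cacng4, Trpv2, Trpc4 and Sln, and the 5 were Slc8a2, Cacna1c, Ryr2, Stim2 and Trpm3. Of the 8, Sln and Trpc4 entered the main test through the iSM KO libraries alone, the group in which they are high. All these fits use the same libraries and are not separate support. Slc8a3 dropped just under a doubling without iSM KO 3, at a log2 fold change of 0.99.

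Some members had their libraries in the same order as the endothelial markers within each group. The 7 endothelial markers summed to 901, 1066 and 548 CPM in controls 1 to 3 and to 307, 504 and 817 CPM in iSM KO 1 to 3, and 0 of the 7 passed the FDR with edgeR, DESeq2 or limma-voom (1, Erg, at an unadjusted p under 0.05). After the values had been seen, the members whose libraries stood in this same order within both groups were counted. They were 7 of the 44, Atp2a3, Trpm3, Trpv4, Atp2b2, Itpr2, Itpr3 and Cacna1a, where 4.39% of all tested genes had this order. Over the 6 libraries these genes ranged 1.45-fold (Atp2a3) to 3.27-fold (Itpr3). Trpm3 was the member of the 7 past the FDR, and the part of endothelial RNA in its value was not tested. The order across the groups was not part of this count. Trpm3 was at 5.88, 6.38 and 5.70 CPM in controls 1 to 3 and at 3.70, 3.75 and 4.54 CPM in iSM KO 1 to 3.

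**Figure D4:**
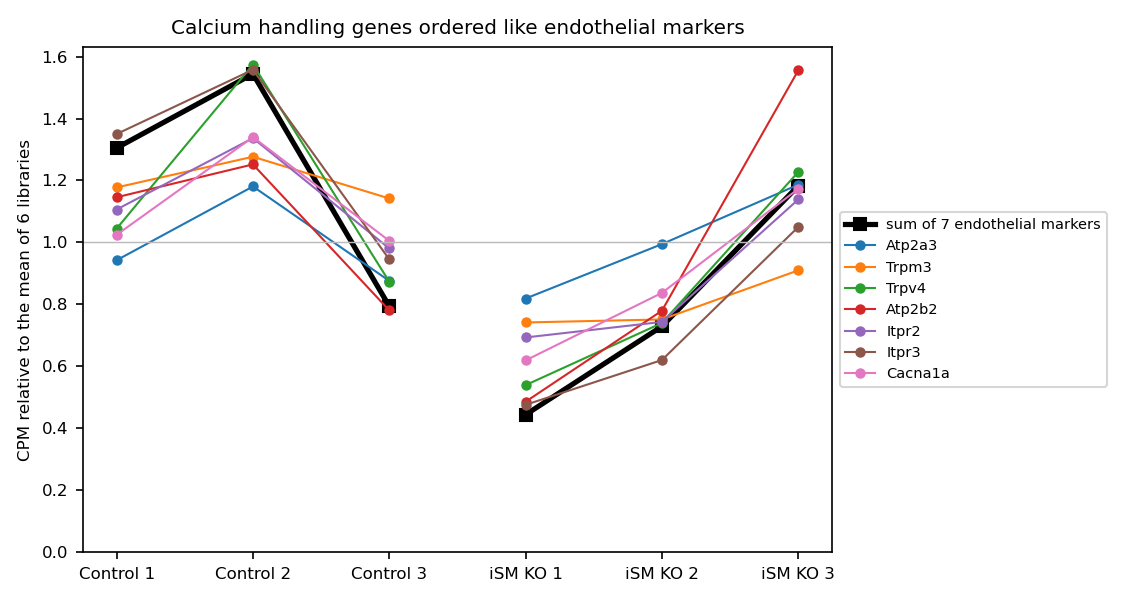
CPM of each library divided by the mean of the 6 libraries, for the sum of 7 endothelial markers (black) and the 7 calcium handling genes with the same library order within both groups. Lines join libraries of a group and carry no order in time; the black line is highest in control 2 and, within iSM KO, in iSM KO 3.

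Genes around these members were read from lists of the calcium pathway, of which 99 genes were in the table and 85 were tested. At an FDR under 0.05, 6 of the 85 were higher and 2 lower, where 4.26% of all tested genes were higher and 3.30% lower, and the 8 called genes are near the 7.56% called over all genes. The median log2 fold change of the 85 was 0.00. In the list of other calcium entry and its regulators, 3 of 15 tested genes rose (background 4.26%). P2rx5, an ATP-gated channel, went from 9.60 ± 1.12 to 16.96 ± 1.86 CPM (log2 fold change 0.82, FDR 0.00555, edgeR's quasi-likelihood test). Rem1, a small GTPase that inhibits voltage-gated calcium channels through their beta subunits, went from 3.20 ± 0.653 to 6.84 ± 0.671 CPM (1.11, FDR 0.00797). Slc24a4, a sodium-calcium exchanger that also carries potassium, went from 4.06 ± 1.93 to 12.3 ± 3.30 CPM (1.62, FDR 0.0154), and it was not past the FDR without iSM KO 2 (1.37, FDR 0.0705).

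Among calcium sensors and kinases, 2 of 22 tested genes rose and 1 fell (background 4.26% and 3.30%). Rcan1 and Rcan2, regulators of the calcium-dependent phosphatase calcineurin, had log2 fold changes of 0.84 (FDR 0.0118, edgeR's quasi-likelihood test) and 0.62 (FDR 0.0190). Rcan1 was not past the FDR without control 3 (FDR 0.0562), nor Rcan2 without iSM KO 2 (FDR 0.0947). Camk1, a calcium-dependent kinase, fell (-0.36, FDR 0.0328). Of the 6 fits without 1 library, the one without control 1 kept that call, and the others had FDRs of 0.0570 to 0.134.

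Of 16 tested genes of calcium-driven contraction and ion currents, 1 rose (background 4.26%). Ano1, which encodes the calcium-activated chloride channel of vascular smooth muscle, went from 107 ± 14.8 to 159 ± 4.60 CPM (0.56, FDR 0.0124, edgeR's quasi-likelihood test), and it was not past the FDR without iSM KO 1 (FDR 0.0518) or iSM KO 2 (FDR 0.0700). Mylk, the myosin light chain kinase of smooth muscle, was at 1695 ± 94.6 and 2082 ± 45.7 CPM and was not past the FDR (0.30, FDR 0.104). Of 20 tested partners of the reticulum, Sri, which encodes the ryanodine receptor modulator sorcin, fell from 20.1 ± 1.07 to 15.5 ± 0.848 CPM (-0.37, FDR 0.0414), a call that was lost in each of the 6 fits without 1 library (background 3.30% lower). Of 12 tested mitochondrial and lysosomal genes 0 passed with edgeR, DESeq2 or limma-voom and 2 had an unadjusted p under 0.05, with the smallest FDR for Slc8b1, the mitochondrial sodium-calcium exchanger (-0.29, FDR 0.121).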

How the data were processed

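The authors depleted ribosomal RNA, sequenced paired-end reads and quantified them against the Ensembl release 101 mouse reference (mm10) with Illumina DRAGEN. They deposited an estimated count per gene and library, unscaled and unfiltered. How reads shared between genes were split, and whether strand was used, is not given in the sources used here. Counts were rounded and genes with a count over 10 in all libraries of at least 1 group were kept. The test was the quasi-likelihood F-test of edgeR 4.0.16 (R 4.3.3) on TMM-scaled counts, with group as the single term, and p-values of 16565 genes were adjusted by Benjamini-Hochberg. The SE of a log2 fold change was derived from this test, as the absolute log2 fold change divided by the square root of F. CPM divide by the TMM-scaled library size. Replicates are separate mice. Ratios used exact two-sided permutation tests (SciPy 1.17.1). CPM per kb divides by the exon length in GENCODE M21, which matched 72 of 72 members. This length merges the exons of all annotated transcripts of a gene, and rankings per kb depend on it. Transcripts were compared with blastn 2.17.0 (95% identity over 100 bp). Promoters come from RefSeq (GRCm38.p6), which had 59 of the 72 members.

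The members and lists were chosen with earlier results of these data known. Genes named were all members past an FDR of 0.05, the 2 most abundant of each role, Sln, Pln, the 3 members just outside the FDR, pathway genes past it (or nearest to it), the leading or past-threshold genes of each marker list, and Prdm16. Others were named after their values were seen. Alternatives were DESeq2 1.42.0, limma-voom (limma 3.58.1), other scaling, filters and gene sets, a replicate block and leaving out each library. The tests were checked on simulated data. Intervals cover counting error only. Some further results are not reported here, and their genes are left out of the text and figures.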

Additional observations from a re-analysis of the deposited data

How the results depend on the processing

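Of the members past the FDR in edgeR's quasi-likelihood test (11 higher and 2 lower), 7 higher and 1 lower remained with the replicate number as a block, and 7 to 9 higher and 1 to 3 lower passed when 1 library was left out. With DESeq2's size factors or filterByExpr, 1 was lower, since Trpm3 had FDRs of 0.0515 and 0.0521; without a filter on low counts, 3 were lower. With limma-voom 10 were higher, since Stim2 had an FDR of 0.0509. Members over 2-fold lower numbered 0 to 1 when 1 library was left out, the 1 being Itpr3 without iSM KO 3, and those over 2-fold higher 3 to 4. The median log2 fold change of the members was 0.0834 with no filter on low counts and 0.0292 to 0.104 with 1 library left out. Of the pathway genes, 9 were higher with DESeq2 or without a filter, 3 were lower with DESeq2, 0 were lower under the block, and 3 to 7 were higher and 0 to 1 lower with 1 library left out. Same-numbered libraries of the 2 groups deviated from their group means with correlations of -0.13, -0.05 and -0.11, so the numbers are not taken to pair the mice. Genes past the FDR numbered 1252 in all, 775 under the block, 1711 with DESeq2 and 516 to 1402 with 1 library left out.

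Directions reversed for genes near a fold change of 0, none of them past the FDR. Atp2a3 had log2 fold changes of 0.00392 with DESeq2, 0.00378 with its size factors, 0.00445 with no filter, 0.00249 with filterByExpr, 0.00836 over protein-coding genes only, and -0.15 to 0.14 with 1 library left out. With 1 library left out, Atp2b1 ranged from -0.0778 to 0.114, Cacna2d1 from -0.0838 to 0.122, Casq1 from -0.0398 to 0.262, Itpr1 from -0.0164 to 0.0957, and the fat markers Dio2 from -0.372 to 0.0501 and Plin4 from -0.0114 to 0.127. The cause of these changes was not tested. Depth limits the 28 untested members, whose means over the 6 libraries were at most 0.579 CPM.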
